A study of Homo sapiens with 14 samples.

Results

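Pancreatic progenitors held in DMSO, the solvent without the drug, for 7 days (2 libraries) were compared with pancreatic progenitors of the stage named PP2, in 1 library. These 3 libraries belong to 14 RNA sequencing libraries in 9 groups, which follow human pluripotent stem cells through endoderm and pancreatic progenitors to expanded progenitors (ePPs) and β-like cells. All cells came from MEL1, a human embryonic stem cell line that, per the study's methods, carries a GFP reporter at the insulin gene. PP2 cells were made by stepwise differentiation of suspended aggregates, with activin A, KGF, the retinoid TTNPB and EGF among the factors. The partners of the DMSO libraries were 2 I-BET151 libraries, which received 1 µM of that inhibitor for the same 7 days. I-BET151 blocks the bromodomains of BET proteins, which read acetylated histones, and the study's basal medium for such progenitors held EGF, bFGF and a TGFβ inhibitor. The comparison asks into which gut, liver or duct programmes the progenitors moved when they were cultured without the inhibitor. PP2 was labelled as batch 1 and the DMSO and I-BET151 libraries as batch 3, so batch and culture cannot be told apart, and PP2 entered no test. The number of passages before the 7 days of treatment is not given for these libraries, and for the chemical screen the study first passaged its progenitors in basal medium, so the difference from PP2 may span more culture than those 7 days. Nothing in the labels says that the 2 DMSO libraries came from separate cultures, so their spread may be technical.

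The pancreas, liver, duodenum, stomach and bile ducts arise from neighbouring stretches of the foregut endoderm and share many transcription factors. PDX1 is active in pancreas and duodenum, HNF1 and HNF4 factors serve liver, gut and pancreas alike, and CDX2 marks the intestine. A pancreatic progenitor is therefore known by a combination of factors, among them PDX1, NKX6-1, SOX9 and PTF1A, and by low levels of the genes that enterocytes, hepatocytes, gastric mucous cells and mature duct cells use.

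Expression was given in TPM, the share of transcripts in a library scaled for gene length and library total. Differences are those of log2(TPM + 1), as DMSO minus PP2, with the SD of the 2 DMSO libraries, and they understate the change of low genes. Of 60624 gene identifiers, 18969 reached 1 TPM in at least 1 of the 3 libraries. Both DMSO libraries lay above PP2 for 4687 of these genes and below it for 11322, together 16009 genes. A gene was called higher or lower when both DMSO libraries differed from PP2 by more than 2-fold on this scale. That held for 1300 genes in the higher direction (6.85%) and for 3976 in the lower (21% of those kept). Of the genes called higher, 499 were under 1 TPM in PP2, and of those called lower, 991 were under 1 TPM in both DMSO libraries. The distance to PP2 exceeded the difference between the DMSO libraries for 1235 of the 1300 and for 3842 of the 3976 called genes. A call already requires more than 2-fold in both libraries, and the median log2 difference between the DMSO libraries was 0.40 over all kept genes. These counts therefore follow largely from the rule for a call and do not show that the calls would repeat.

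The excess of lower calls depended on the scaling. The median difference of all kept genes was -0.48, and genes for ribosomal proteins took 20.6% and 28.2% of all TPM in the DMSO libraries against 11.1% in PP2. Of all calls, 24.6% were higher with the values as deposited and 34.3% among protein-coding genes rescaled without ribosomal protein genes and mitochondrial copies. The share was 48.7% after quantile normalization and 56.7% after each library was centred on its median. Of the 143 genes eligible for naming, 64 were called higher and 69 lower. Centring raises the differences of DMSO from PP2, so it can take away lower calls, and 9 of the 69 lost theirs, while quantile normalization took 1 of the 64 higher and 7 of the 69 lower calls. Differences below are to be read against the shift of -0.48, and counts of calls against 6.85% higher and 21% lower among all kept genes. The part of the batch and of the ribosomal share in the calls was not tested.

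**Figure D1:**
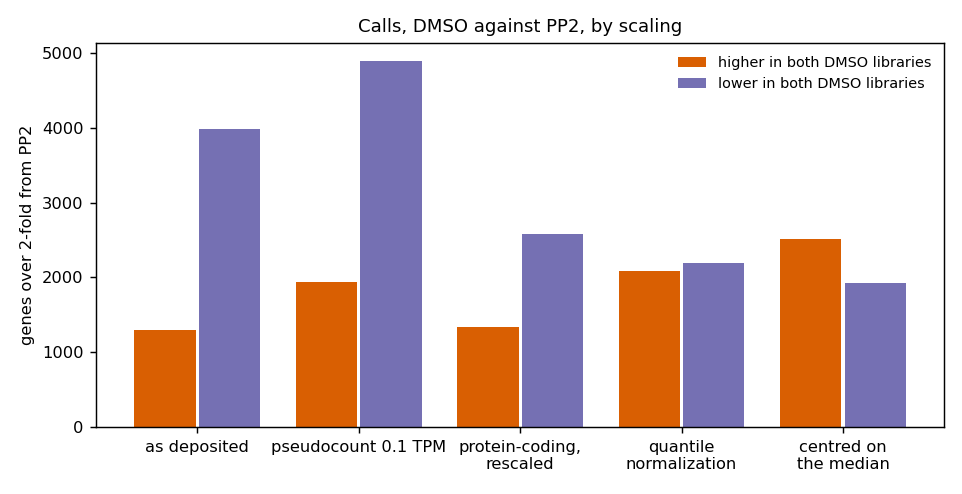
Numbers of genes (vertical axis) called higher or lower in both DMSO libraries than in PP2 under 5 ways of scaling the TPM. With values as deposited 1300 genes were higher and 3976 lower, and with each library centred on its median 2520 were higher and 1924 lower.

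The intestinal genes stood furthest above PP2. Of 32 listed genes of the intestinal epithelium, 28 passed the filter on low values, and 21 were called higher and 0 lower with DMSO. The median difference of those that passed was 4.41, against -0.48 for all kept genes. The filter keeps a gene that is high in any 1 library, so this median leans to the genes that differ. In PP2, 19 of the 32 were under 1 TPM. The summed level of the list was 226 TPM in PP2, 3005 and 4132 TPM with DMSO, and 278 and 671 TPM with I-BET151. In β-like cells made from ePPs (ePP-β) it was 1398 and 1478 TPM. In those made directly from stem cells (SC-β) it was 255 TPM. In bulk RNA, more cells of an intestinal kind and more RNA per cell cannot be told apart.

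The promoters of the intestinal and lipid genes called higher were read for short motifs of endodermal factors, since these genes were high together. The windows hold 250 bases before and 50 after the RefSeq start (GRCh38.p14), and both strands were searched. Of the 33 genes, 24 had a window, and 8 of the 24 (33.3%) held the HNF1 core GTTAAT, against 6.89% of 27305 promoters of all genes. The GATA motif AGATAAG stood in 2 (8.33%) against 2.63%, the CDX motif TTTATGG in 1 (4.17%) against 2.66%, and the HNF4 motif CAAAGTCCA in 1 (4.17%) against 0.359%. The FOXA motif TGTTTAC stood in 0 of 24, against 3.41% of all promoters. Among the intestinal genes alone the HNF1 letters stood in 6 of 16 promoters of those called higher (37.5%) and in 9 of 23 promoters of the list (39.1%), called or not. They also stood in 7 of 17 promoters of the liver list (41.2%), whose genes went in both directions, and a match of letters is no bound site.

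The 250 bases before the start are shown for MUC13, a membrane mucin of the gut surface, FABP1, the liver-type fatty acid binding protein, and SLC26A3, the chloride and bicarbonate exchanger of the gut. These hold more than 1 match each, and capitals mark the matched letters. So does the intestinal gene GUCA2A, not shown, with the GATA motif 131 and 106 bases before the start on the opposite strand. MUC13 (chr3:124934752-124935001) has the HNF4 motif 51 bases and the HNF1 core 245 bases before the start, both on the opposite strand. FABP1 (chr2:88128063-88128312) has the HNF1 core 108 bases before the start and the CDX motif 90 bases before it, the latter on the opposite strand. SLC26A3 (chr7:107803224-107803473) has the HNF1 core 93 and 83 bases before the start. All 3 genes lie on the minus strand, and the RefSeq start of MUC13 lies inside the longer gene of the GENCODE annotation used here.
MUC13: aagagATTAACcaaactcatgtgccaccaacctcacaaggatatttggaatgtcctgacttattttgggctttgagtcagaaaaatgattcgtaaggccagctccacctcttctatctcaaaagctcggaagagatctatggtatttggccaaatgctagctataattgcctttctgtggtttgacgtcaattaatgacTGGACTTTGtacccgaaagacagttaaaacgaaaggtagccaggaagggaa
FABP1: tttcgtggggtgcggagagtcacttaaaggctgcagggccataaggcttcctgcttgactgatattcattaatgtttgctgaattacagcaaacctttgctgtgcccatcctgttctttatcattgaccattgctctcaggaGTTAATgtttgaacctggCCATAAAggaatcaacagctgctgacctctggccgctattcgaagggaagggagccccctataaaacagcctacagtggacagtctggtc
SLC26A3: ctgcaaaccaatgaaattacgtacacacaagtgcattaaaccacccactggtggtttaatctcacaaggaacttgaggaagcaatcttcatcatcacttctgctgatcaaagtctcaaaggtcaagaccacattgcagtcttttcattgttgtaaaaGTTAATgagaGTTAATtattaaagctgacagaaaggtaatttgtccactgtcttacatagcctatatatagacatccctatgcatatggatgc

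MUC13 showed the largest difference among the eligible genes called higher. It lies on chromosome 3, at 124905442 to 124953819 on the minus strand of GRCh38. It stood at 0.188 TPM in PP2 and at 582 and 880 TPM with DMSO, a difference of 9.24 ± 0.42. The I-BET151 libraries held 72.6 and 205 TPM and the ePP libraries, grown on feeder cells with I-BET151 in another batch, 12.2 to 17.5 TPM, so both lay between PP2 and DMSO. The ePP-β libraries held 496 and 521 TPM and SC-β 4.35 TPM, so a high level was not particular to DMSO. SLC26A3 was at 0.402 TPM in PP2 and at 43.2 and 80.4 TPM with DMSO.

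CEACAM1 and CEACAM6 are adhesion molecules of the carcinoembryonic antigen family, found on gut epithelium. CEACAM1 was at 3.23 TPM in PP2 and at 462 and 524 TPM with DMSO, a difference of 6.87 ± 0.13. CEACAM6 was at 0.0312 TPM in PP2 and at 128 and 502 TPM with DMSO, so its DMSO libraries lay further apart. Reads of these similar genes may have been divided among them, and a read-through gene overlaps CEACAM6. PHGR1, a histidine- and glycine-rich protein of gut epithelium, was listed at 0 in PP2 and in the 4 ePP libraries and stood at 75.2 and 469 TPM with DMSO.

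Structural genes of the enterocyte were present earlier. CDH17, the intestinal cadherin, was already at 44.5 TPM in PP2 and at 415 and 443 TPM with DMSO, a difference of 3.24 ± 0.07. VIL1, the villin of the brush border, was not called, with 107 TPM in PP2 and 177 and 101 TPM with DMSO.

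The next genes of the list were singled out after their values were seen. Aminopeptidase N (ANPEP), a brush border peptidase, was at 2.1 TPM in PP2 and 130 and 81 TPM with DMSO. The peptide transporter SLC15A1 was at 0.391 TPM in PP2 and 31.5 and 32.7 TPM with DMSO. GUCA2A, the precursor of the gut peptide guanylin, was at 0.529 TPM in PP2 and 70.4 and 80.6 TPM with DMSO. Peptidase, transporter and guanylin were thus all low in PP2 and far above it in both DMSO libraries. The next 3 genes of the list were not called. The goblet mucin MUC2 was listed at 0 in PP2 and at 0.808 and 0.211 TPM with DMSO, and the stem cell gene LGR5 was at 0.0201 TPM and then at 0.153 and 0.173 TPM. Sucrase-isomaltase (SI), an enzyme of mature enterocytes, was at 4.52 TPM in PP2 and lower, at 1.62 and 1.93 TPM, with DMSO.

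Genes of lipid absorption and lipoprotein assembly lay on the same side, although PP2 already expressed several of them. All 18 listed genes passed the filter, 12 were called higher and 0 lower, 17 lay above PP2 in both DMSO libraries, and the median difference was 2.48. Their summed level was 2325 TPM in PP2, 7094 and 8247 TPM with DMSO, and 1035 and 1903 TPM with I-BET151.

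APOA4, an apolipoprotein of chylomicrons, was at 9.18 TPM in PP2 and at 927 and 1473 TPM with DMSO, a difference of 6.84 ± 0.47. FABP1 was at 79.2 TPM in PP2 and at 1230 and 2610 TPM with DMSO. FABP2, its intestinal relative, was listed at 0 in PP2 and stood at 44.9 and 82.9 TPM with DMSO. Both binding proteins were higher in replicate 2 than in replicate 1. CIDEC, a protein of lipid droplet growth, was at 0.145 TPM in PP2 and at 65.7 and 78.5 TPM with DMSO, and the 2 DMSO values were close. APOA1, the main apolipoprotein of HDL, was at 1044 TPM in PP2 and at 3108 and 2030 TPM with DMSO, and missed the call because replicate 2 lay just under 2-fold. RBP2, the retinol binding protein of enterocytes, belongs to no list but was among the 12 largest differences, with 2.28 TPM in PP2 and 331 and 818 TPM with DMSO.

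**Figure D2:**
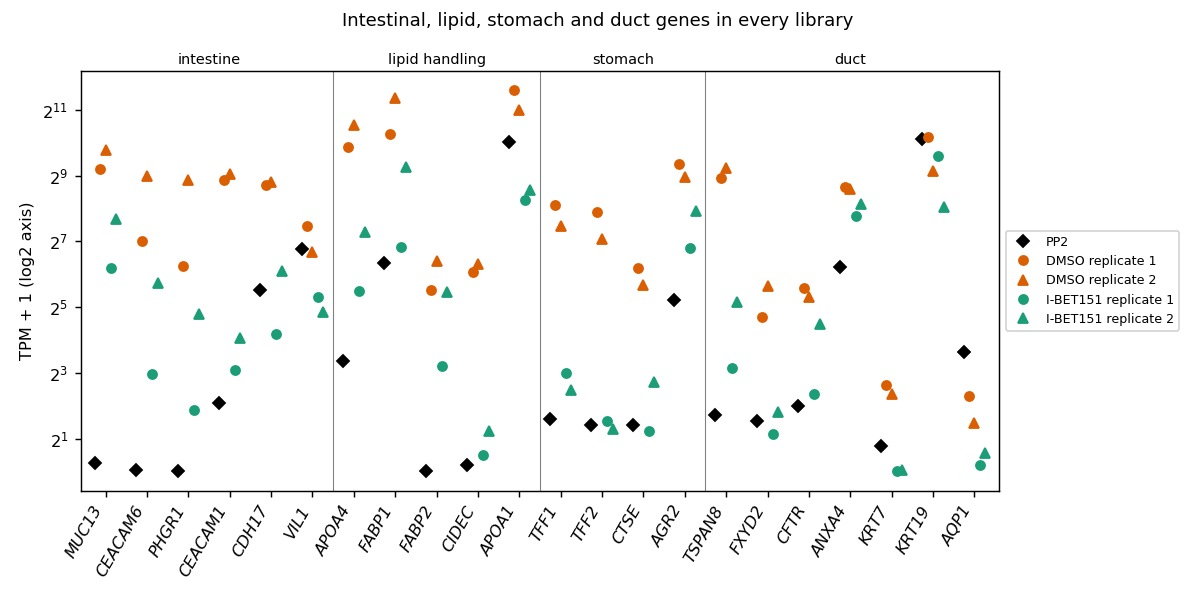
TPM + 1 on a log2 axis for genes of intestine, lipid handling, stomach and duct in PP2 (black diamonds), DMSO (orange) and I-BET151 (green), with circles for replicate 1 and triangles for replicate 2. Both DMSO points of MUC13, CEACAM1, APOA4, TFF1, TFF2 and TSPAN8 lie above all other points of the gene, while those of KRT19 lie around PP2.

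Stomach calls were mostly higher. Of 17 listed, 9 passed the filter, 5 were called higher and 1 lower, and 10 were under 1 TPM in PP2. Under centring, quantile normalization or rescaling, 6 were called higher and 0 lower. The summed level was 55.7 TPM in PP2, 1262 and 879 TPM with DMSO, and 123 and 265 TPM with I-BET151. It was 1584 and 1689 TPM in ePP-β and 833 TPM in SC-β. TFF1, a trefoil peptide of surface mucous cells, was at 2.03 TPM in PP2 and at 277 and 176 TPM with DMSO, a difference of 6.19 ± 0.46. TFF2, the trefoil peptide of deeper mucous cells, was at 1.68 TPM in PP2 and at 234 and 132 TPM with DMSO. CTSE, the gastric protease cathepsin E, was at 1.65 TPM in PP2 and at 72.6 and 50.1 TPM with DMSO. All 3 stood low in PP2 and higher in replicate 1 of DMSO. AGR2, a folding enzyme of mucin-secreting cells, was at 36.3 TPM in PP2 and at 656 and 491 TPM with DMSO. The defining products of the stomach, singled out after their values were seen, were at or near 0. The gastric mucin MUC5AC did not exceed 0.0113 TPM in the 3 libraries, and gastrokine 1 (GKN1) and gastric lipase (LIPF) were listed at 0 in all of them. SOX2, the transcription factor of the foregut and stomach, is counted among the regulators below and not in the stomach list. It was at 35.1 TPM in PP2 and at 0.0898 and 0.09 TPM with DMSO, a difference of -5.05 whose call was also made under each other scaling.

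Liver genes went in both directions. Of 23 listed genes for liver secreted proteins and enzymes, 19 passed the filter, 6 were called higher and 6 lower. The median difference was -0.29, and it turned to 0.20 when each library was centred and to 0.18 without DMSO replicate 1. The summed level was 4866 TPM in PP2, 10469 and 9458 TPM with DMSO, and 1609 and 3645 TPM with I-BET151. The β-like cells lay above DMSO, with 18403 and 20815 TPM in ePP-β and 31443 TPM in SC-β.

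AFP, the fetal serum protein of liver and yolk sac, was at 1646 TPM in PP2 and at 5526 and 5198 TPM with DMSO. It held most of the difference between PP2 and DMSO in that sum. SERPINA1, the serum antitrypsin, was at 358 TPM in PP2 and at 1387 and 977 TPM with DMSO. ALB, serum albumin, was at 10.1 TPM in PP2 and at 115 and 66.2 TPM with DMSO, and so stayed far below AFP in every one of the 3 libraries. The hepatocyte lectin receptor ASGR1 was at 8.27 TPM in PP2 and at 32.9 and 24.4 TPM with DMSO.

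The lower calls were serum proteins and enzymes of the hepatocyte as well. HPX, the heme carrier hemopexin, was at 53.2 TPM in PP2 and at 2.07 and 1.4 TPM with DMSO, a difference of -4.32 ± 0.25. AHSG, the fetal serum protein fetuin-A, was at 23.1 TPM in PP2 and at 0.397 and 0.505 TPM with DMSO. FGA, a fibrinogen chain, was at 82.3 TPM in PP2 and at 8.74 and 26.6 TPM with DMSO. In all 3 genes PP2 held the highest value, and FGA differed most between the DMSO libraries. CPS1, the entry enzyme of the urea cycle, was at 25.7 TPM in PP2 and at 5.04 and 7.82 TPM with DMSO. The liver enzymes CYP3A7 and CYP7A1 and haptoglobin (HP) did not reach 1 TPM in any of the 3 libraries.

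Among 20 listed regulators of gut and liver, 18 passed the filter, 9 were called higher and 2 lower, with a median difference of 1.35. NR1H4, the bile acid receptor FXR, was at 0.294 TPM in PP2 and at 28.4 and 40 TPM with DMSO, a difference of 4.75 ± 0.34. PPARG, a nuclear receptor of lipid metabolism, was at 3.21 TPM in PP2 and at 156 and 56.9 TPM with DMSO. CREB3L3, a membrane-bound factor of liver and small intestine, was at 8.72 TPM in PP2 and at 130 and 62.8 TPM with DMSO. These 3 factors were low in PP2, and PPARG and CREB3L3 were higher in replicate 1. KLF5, a factor of proliferating gut epithelium, was at 28.4 TPM in PP2 and at 138 and 194 TPM with DMSO. CDX2 was already at 55.5 TPM in PP2 and stood at 237 and 104 TPM with DMSO, so only replicate 1 passed 2-fold. HNF4A was at 119 TPM in PP2 and at 156 and 47 TPM with DMSO, on opposite sides of PP2.

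Duct calls were mostly higher, and the keratins did not lead them. Of 21 listed, 19 passed the filter, 8 were called higher and 1 lower, and the median difference was 0.61. Both DMSO libraries lay above PP2 for 13 of them and below it for 4. Under centring or quantile normalization 8 were called higher and 0 lower. TSPAN8, a tetraspanin of several digestive epithelia, was at 2.32 TPM in PP2 and at 490 and 595 TPM with DMSO, a difference of 7.35 ± 0.20. FXYD2, a regulator of the sodium pump, was at 1.89 TPM in PP2 and at 25.1 and 49.2 TPM with DMSO. The chloride channel CFTR was at 3 TPM in PP2 and at 46.5 and 38.9 TPM with DMSO. FXYD2 and CFTR were thus well above PP2 in both libraries. ANXA4, a calcium-dependent membrane protein, was at 72.7 TPM in PP2 and at 404 and 384 TPM with DMSO. KRT19 was at 1105 TPM in PP2 and at 1154 and 567 TPM with DMSO, with the DMSO libraries on either side of PP2. KRT7 was called higher but stayed low, at 0.702 TPM in PP2 and 5.14 and 4.13 TPM with DMSO. The water channel AQP1, the 1 gene called lower, was at 11.3 TPM in PP2 and 3.88 and 1.79 TPM with DMSO, and lost the call when each library was centred.

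**Figure D3:**
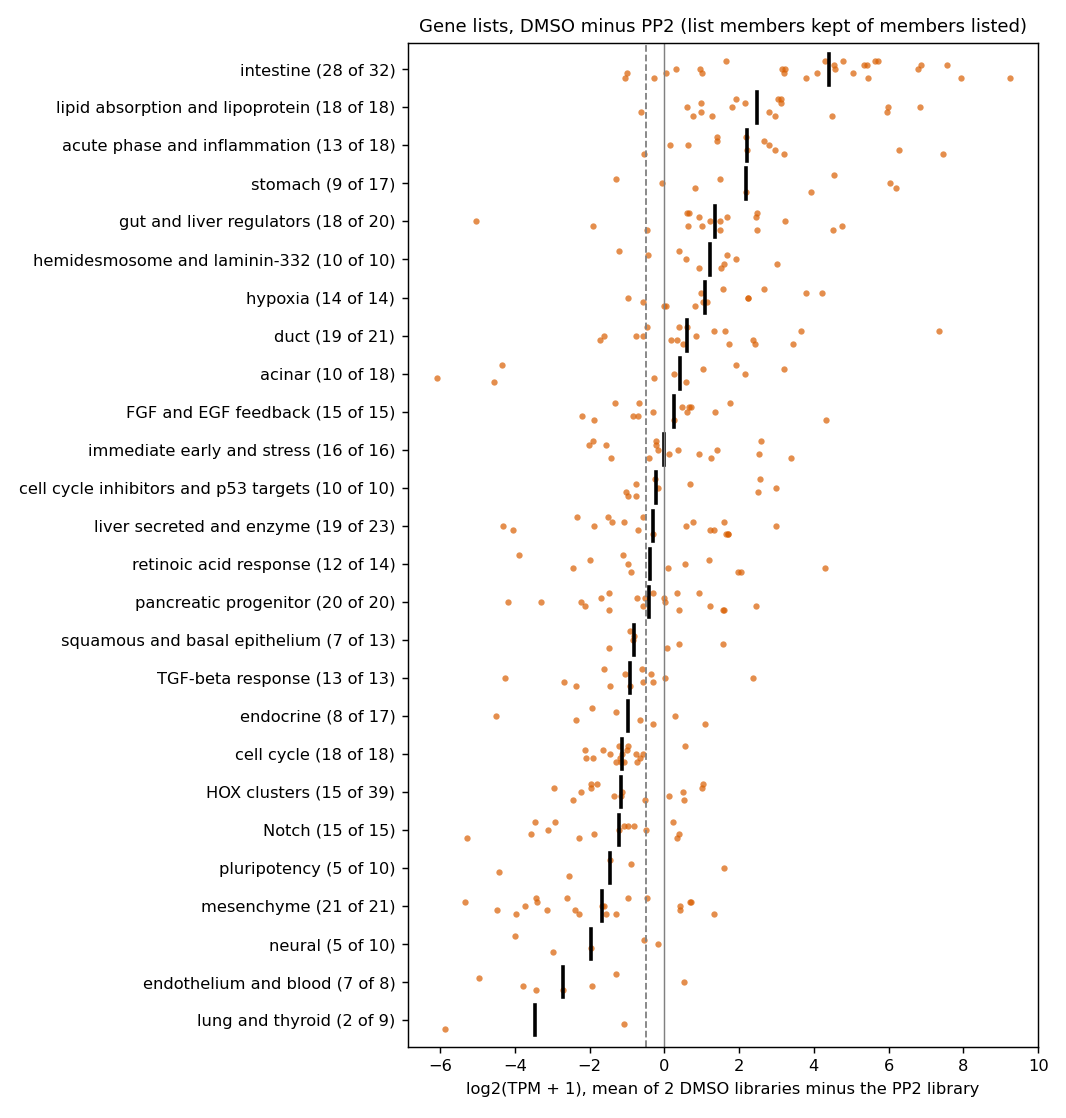
Difference in log2(TPM + 1), mean of the 2 DMSO libraries minus PP2 (horizontal axis), for each member of 26 gene lists that passed the filter; black bars are list medians, the dashed line is the median of all kept genes (-0.48). The medians run from 4.41 for the intestine to -3.47 for the 2 lung and thyroid genes that passed, and the duct, liver and progenitor genes spread to both sides of the dashed line.

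The pancreatic progenitor genes were partly kept. All 20 listed genes passed the filter, 3 were called higher and 7 lower, and the median difference of -0.42 was close to that of all genes and turned to 0.07 under centring. PDX1 had 251 TPM in PP2 against 110 and 74.4 TPM with DMSO. It was called lower, with a difference of -1.47, but lost the call when each library was centred (-0.98). NKX6-1, a factor of the pancreatic trunk and of β-cells, was at 23.5 TPM in PP2 and at 103 and 51.5 TPM with DMSO, a difference of 1.59 ± 0.69. SOX9 was at 107 TPM in PP2 and at 82.2 and 88.8 TPM with DMSO. These 3 factors were still expressed with DMSO, on different sides of PP2, whereas PTF1A, given below, was not above 1 TPM. ONECUT1 was at 10.8 TPM in PP2 and at 5.93 and 6.18 TPM with DMSO and was not called. GP2, a surface marker of human pancreatic progenitors, was at 3.17 TPM in PP2 and at 28.4 and 16.8 TPM with DMSO.

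Pioneer factors of the endoderm were among the lower calls. FOXA2 was at 201 TPM in PP2 and at 45 and 39 TPM with DMSO, and FOXA1 at 173 TPM and then at 43 and 35.6 TPM. GATA4 was at 117 TPM in PP2 and at 37 and 33.8 TPM with DMSO. HHEX, an early factor of the liver and pancreas buds, was at 476 TPM in PP2 and at 29.9 and 74.6 TPM with DMSO. The DMSO libraries were alike for the FOXA and GATA factors and apart for HHEX. PTF1A, needed for the pancreas and for acinar cells, was at 21 TPM in PP2 and at 0.0868 and 0.337 TPM with DMSO, a difference of -4.19 ± 0.21.

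Endocrine genes were low, while the acinar list differed between the DMSO libraries. Of 18 acinar genes 10 passed the filter, 2 were called higher and 3 lower, with a median difference of 0.42. Their summed level was 219 TPM in PP2 and 85.6 and 630 TPM with DMSO. The trypsinogen PRSS1 was at 60.2 TPM in PP2 and at 0.31 and 4.22 TPM with DMSO, though PRSS1 and PRSS2 are near-identical and may exchange reads. REG3A, a lectin of acinar and gut cells, was listed at 0 in PP2 and at 6.06 and 11.2 TPM with DMSO. Of 17 endocrine genes 8 passed, 0 were called higher and 4 lower. NEUROG3, which starts endocrine differentiation, was at 4.28 TPM in PP2 and at 0.935 and 0 TPM with DMSO.

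**Figure D4:**
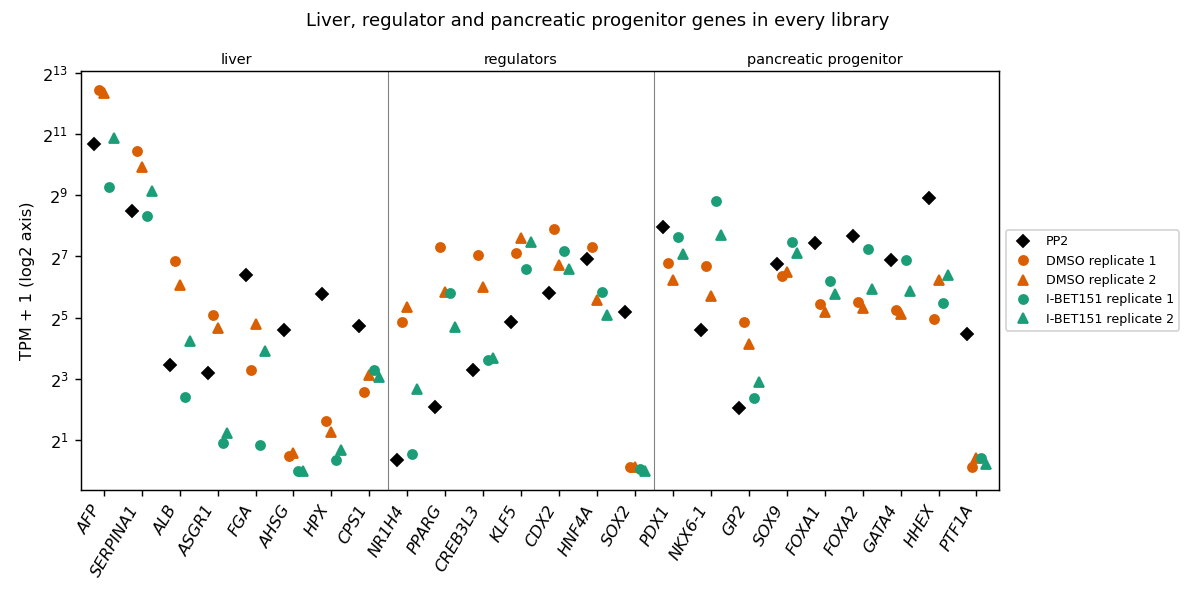
TPM + 1 on a log2 axis for liver genes, regulators and pancreatic progenitor genes in PP2 (black diamonds), DMSO (orange) and I-BET151 (green), with circles for replicate 1 and triangles for replicate 2. DMSO lies above PP2 for AFP, SERPINA1, ALB, ASGR1, NR1H4, PPARG and NKX6-1 and below it for FGA, AHSG, HPX, SOX2, HHEX, FOXA2 and PTF1A.

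Epithelial defence and attachment genes were also higher with DMSO. Of 18 genes of the acute phase and inflammation, 13 passed the filter, 9 were called higher and 0 lower. Complement C3 was at 0.292 TPM in PP2 and at 267 and 188 TPM with DMSO, and the chemokine CCL20 was listed at 0 and then stood at 49.1 and 120 TPM. Of 10 genes of hemidesmosomes and laminin-332, which anchor epithelium to its basement membrane, 5 were called higher and 0 lower. The laminin chain LAMB3 was at 6.87 TPM in PP2 and at 30.8 and 26.5 TPM with DMSO.

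Of 14 genes of the hypoxia response, 6 were called higher and 0 lower. The carbonic anhydrase CA9 was at 0.911 TPM in PP2 and at 40 and 29.5 TPM with DMSO, while NDRG1 was at 18.5 TPM and then at 620 and 118 TPM, with replicate 1 far above replicate 2. Of 10 cell cycle inhibitors and p53 targets, 3 were called higher and 0 lower, among them CDKN1A at 36.7 TPM in PP2 and 247 and 181 TPM with DMSO. Of 16 immediate early and stress genes, 4 were called higher and 4 lower, beside 6.85% and 21% of all kept genes. Some of these separated the DMSO libraries. Asparagine synthetase (ASNS), a target of the amino acid response, was at 8.63 TPM in PP2 and at 34.8 and 289 TPM with DMSO. With I-BET151 it was at 25 and 351 TPM, so replicate 2 was the higher one in both treatments.

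Among the 12 largest differences in the lower direction were the following 3 genes. CGA, the shared subunit of the glycoprotein hormones, was at 901 TPM in PP2 and at 0.0606 and 0.106 TPM with DMSO, a difference of -9.70 ± 0.04. HAND1, a factor of heart and lateral mesoderm, was at 136 TPM in PP2 and at 0.902 and 0.0979 TPM with DMSO. FOXJ1, the main factor of motile cilia, was at 142 TPM in PP2 and at 1.99 and 0.987 TPM with DMSO. In each case a transcript that was plain in PP2 was near the floor of the filter, or below it, in both DMSO libraries.

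Markers of other cell types were lower with DMSO as well. Of 21 mesenchymal genes, all of which passed the filter, 13 were called lower and 1 higher, and their sum was 5970 TPM in PP2 and 2220 and 2240 TPM with DMSO. The 1 called higher was ACTA2, with a difference of 1.33. COL1A2, a fibrillar collagen chain, was at 165 TPM in PP2 and at 4.68 and 2.02 TPM with DMSO, and VIM, which cultured epithelium also expresses, was at 381 TPM and then at 600 and 626 TPM. Of 8 genes of endothelium and blood, 7 passed, 5 were called lower and 0 higher, and their sum was 92.1 TPM in PP2 and 7.6 and 5.5 TPM with DMSO. The VEGF receptor KDR was at 35.4 TPM in PP2 and at 0.322 and 0.054 TPM with DMSO, and the leukocyte marker PTPRC was listed at 0 in PP2. Of 10 neural genes 5 passed, 3 were called lower and 0 higher, and the neural crest factor SOX10 was at 0.0291 TPM in PP2. The part of these cell types in the lower values of other genes was not tested.

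Notch genes had lower calls only, while the other signalling lists had calls in both directions. Of 15 Notch pathway genes, 7 were called lower and 0 higher, and the same 7 were called under each other scaling. The ligand DLL1 was at 73.7 TPM in PP2 and at 1.27 and 0.616 TPM with DMSO, the receptor NOTCH3 at 204 TPM and then at 37 and 13.5 TPM, and the target HEY1 at 146 TPM and then at 14.6 and 10.7 TPM. Of 18 cell cycle genes, 9 were called lower and 0 higher, but 3 when each library was centred. MCM2, part of the replication helicase, was at 226 TPM in PP2 and at 68 and 39.1 TPM with DMSO, and the proliferation marker MKI67 was at 20.7 TPM and then at 15.1 and 6.73 TPM. Of 13 genes that respond to TGFβ, 4 were called lower and 1 higher, and of 14 genes of the retinoic acid response 3 were called lower and 3 higher. Of 15 feedback genes of FGF and EGF signalling 3 were called lower and 2 higher. Over all kept genes 21% were called lower and 6.85% higher, so the lower calls of the retinoic acid and feedback lists lie near that share. CRABP2, a retinoic acid binding protein, was at 263 TPM in PP2 and at 26.1 and 10.9 TPM with DMSO. ALDH1A2, which makes retinoic acid, went the other way with 0.501 TPM in PP2 and 38.4 and 21.5 TPM with DMSO.

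The remaining lists held few expressed genes. Of 39 HOX genes 15 passed the filter, 7 were called lower and 0 higher, but 4 were called lower under centring or quantile normalization. Of 13 squamous and basal genes 7 passed, with 1 called higher and 0 lower, and TP63, which defines basal cells, did not exceed 0.00767 TPM. Of 9 lung and thyroid genes 2 passed, both called lower, and NKX2-1, which defines both organs, was listed at 0 in all 3 libraries. Of 10 pluripotency genes 5 passed, with 1 called higher and 3 lower, and NANOG did not exceed 0.0217 TPM.

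The I-BET151 libraries were set against the same PP2 library. Of 18700 genes kept, 605 were called higher (3.24%) and 2718 lower (14.5%), with a median difference of -0.32. Of the 32 intestinal genes, 12 were called higher and 5 lower, beside 21 and 0 for DMSO. Of the 18 lipid genes, 3 were called higher and 5 lower, beside 12 and 0. Of the 23 liver genes, 0 were called higher and 12 lower, beside 6 and 6. Of the 17 stomach genes 1 was called higher and 2 lower, of the 21 duct genes 3 and 3, and of the 20 progenitor genes 2 and 4. Both comparisons share the PP2 library, so the counts stand side by side and are no independent results.

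I-BET151 and DMSO could be tested against each other within batch 3, with limma on log2(TPM + 1). Of 16687 genes tested, 1 was higher with I-BET151 (0.00599%) and 34 were lower (0.204%) at an adjusted p under 0.05 and a log2 fold change beyond 1, and 2536 had an unadjusted p under 0.05. The 1 higher gene was MTATP8P1, a nuclear copy of a mitochondrial gene. TFF2 fell with a log2 fold change of -6.05 (SE 0.40), TFF1 of -5.06 (SE 0.39), CEACAM1 of -5.36 (SE 0.42), CIDEC of -5.33 (SE 0.38) and C3 of -4.79 (SE 0.40), each with a limma adjusted p of 0.048. By list, 3 of the 32 intestinal genes, 2 of the 18 lipid genes, 2 of the 17 stomach genes and 4 of the 23 liver genes fell. In this fit, which had no replicate block, none of the 21 duct genes or the 20 progenitor genes passed in either direction. Their median log2 fold changes were -0.78 and 0.67 among those tested.

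Several genes far from PP2 did not pass that test, which was fitted without a replicate block. MUC13 had a log2 fold change of -2.54 (SE 0.58, limma adjusted p = 0.148), APOA4 of -3.79 (SE 0.67, adjusted p = 0.1) and NKX6-1 of 2.05 (SE 0.54, adjusted p = 0.184). With a pseudocount of 0.1 TPM limma called 0 genes in either direction, with 2462 genes at an unadjusted p under 0.05, so the calls at an adjusted p of 0.048 stand close to the threshold. With the replicate number as a block, limma called 828 genes higher and 1466 lower, and MUC13, APOA4 and NKX6-1 then passed. A gene that did not pass without the block therefore cannot be called unchanged, though the labels do not say that these numbers pair the samples.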

How the data were processed

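Total RNA was isolated with a column kit, and per the labels libraries were made with a NEBNext Ultra kit and sequenced paired-end. The authors aligned reads with HISAT2 2.1.0 to GRCh38, computed a TPM per gene with StringTie and deposited 1 TPM table per sample; the annotation release and strand setting were not given in the sources used here. TPM keeps no read depth, so depth is unknown and no counting interval is given. The 37 mitochondrial genes were listed at 0 in every library.

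Genes at 1 TPM in at least 1 of the 3 libraries were kept, and log2(TPM + 1) was compared without a test. Genes were eligible for naming if they were among the 12 protein-coding genes per direction with the largest difference and 10 TPM on the higher side, among 4 per list and direction with 5 TPM, or on a fixed list of lineage genes. Other genes in the text, such as SLC26A3, PTPRC, TP63 and MTATP8P1, were named outside this rule. The members and the 26 lists (439 genes) were chosen with earlier results of these data known. I-BET151 was compared with DMSO by limma 3.58.1 (R 4.3.3, trend) with Benjamini-Hochberg adjustment, on genes at 1 TPM in at least 2 of the 4 libraries, and the fit was tested on simulated data. Alternatives changed the pseudocount, the filter, the scaling, the threshold, the replicate block and the libraries. Other tables used pandas 2.3.3, and promoters came from RefSeq (GRCh38.p14). Gene symbols, types and positions came from a GENCODE annotation that was chosen here and may differ from that of the authors.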

Additional observations from a re-analysis of the deposited data

Results flagged for a closer look

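Among the 143 genes eligible for naming, 3 had both DMSO libraries more than 2-fold above PP2 and both I-BET151 libraries more than 2-fold below it. The share of all genes with this pattern was not computed, so it cannot be told whether 3 of 143 is more than usual. Limma, adjusting over all genes tested, also called the difference between I-BET151 and DMSO for these 3. Their selection already sets the libraries of the 2 groups apart, so the limma call adds no independent support. ASGR1, the hepatocyte lectin receptor, was at 8.27 TPM in PP2, 32.9 and 24.4 TPM with DMSO and 0.871 and 1.36 TPM with I-BET151, and its log2 fold change was -3.81 (SE 0.34). LOX, the collagen crosslinking enzyme, was at 8.59 TPM in PP2, 51.2 and 38.7 TPM with DMSO and 1.82 and 2.62 TPM with I-BET151, and its log2 fold change was -3.83 (SE 0.34). LAMB3 was at 6.87 TPM in PP2, 30.8 and 26.5 TPM with DMSO and 0.559 and 0.787 TPM with I-BET151, and its log2 fold change was -4.15 (SE 0.31). Each had a limma adjusted p of 0.048, in 2 libraries of each group.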

How the results depend on the processing

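The counts of genes against PP2 moved with the scaling, and the cause was not tested. For DMSO, 2520 genes were higher and 1924 lower under centring, 2082 and 2197 under quantile normalization, 2576 lower after rescaling, and 426 and 845 past 2 log2 units; with 1 DMSO library left out, 1979 to 2126 were higher and 5026 to 6077 lower. For I-BET151, alternatives chosen after seeing the data gave 1116 higher with a pseudocount of 0.1 TPM, 1406 and 1607 under centring, 1262 and 1697 under quantile normalization, 103 and 858 past 2 log2 units, and with 1 library left out 1155 to 1604 higher and 3443 to 5475 lower.

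List medians turned sign for the liver (0.20 centred, 0.01 quantile, 0.37 rescaled), the progenitors (0.07 centred, 0.08 quantile; -0.14 rescaled), the acinar list (-0.01 without a filter), the cell cycle inhibitors (0.27, 0.29 and 0.06 centred, quantile and rescaled), the retinoic acid list (0.09 and 0.06 centred and quantile) and the stress list (0.47, 0.50 and 0.26 centred, quantile and rescaled). With 1 DMSO library left out, medians ran from -0.30 to 0.18 for the liver, -0.50 to 0.42 for stress, 0.50 to 0.88 for duct, 1.79 to 3.15 for stomach, 3.96 to 4.55 for intestine and 2.21 to 2.53 for lipid. The intestine median was 5.31 with a pseudocount of 0.1 TPM, 3.94 without a filter, 4.77 with a filter of 5 TPM, 4.89 centred and 4.75 by quantiles. The lipid median was 3.00 with that pseudocount, 2.87 with that filter, 2.97 centred, 2.95 by quantiles and 2.79 rescaled. The stomach median was 3.60, 0.75 without a filter, 3.93 with a filter of 5 TPM and 1.45 rescaled. The duct median was 1.09 centred, 1.07 by quantiles and 0.89 rescaled, and the regulator median 1.84 centred.

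For I-BET151 against DMSO, limma called 0 genes in either direction with a pseudocount of 0.1 TPM or without a filter (2462 and 4535 at an unadjusted p under 0.05), 119 lower under centring, and 3 higher and 135 lower under quantile normalization. With 1 library left out, so that the lone sample is assumed to vary like the other group, 7 to 283 genes were higher and 100 to 751 lower. With the replicate number as a block 828 were higher and 1466 lower, and the limma adjusted p became 0.00739 for MUC13, 0.00473 for APOA4 and 0.00468 for NKX6-1. The difference of replicate 2 from replicate 1 correlated across genes at 0.675 between the treatments, but the labels do not say that the numbers pair the samples, and there are 2 pairs only. TPM holds no depth, so no limit of detection can be given.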
